A study of Mus musculus with 16 samples.

Results

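The complementarity-determining region 3 (CDR3) of a T cell receptor (TCR) α chain begins with a conserved cysteine, and the sequences described here hold a further cysteine at any later position. The rule was read from the deposited amino acid sequence alone and used no read count or group. It took 2501 of the 83992 CDR3 nucleotide sequences in the 16 libraries (2.98%), or 2382 distinct nucleotide and 2126 distinct amino acid sequences. In 17 of them there were 2 or more internal cysteines, and in 7 the first residue itself was not a cysteine. Each deposited row, 1 CDR3 nucleotide sequence in 1 library, is called a sequence below.

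The libraries were made from CD8+ T cells of Themis+/+ Foxp3-GFP and Themis-/- Foxp3-GFP mice on a C57BL/6 background. The controls were B6.Cg-Foxp3 tm2Tch/J reporter mice, and the Themis-/- mice came from a cross of B6.129S-Themis tm1Gasc with the same reporter, so that both genotypes carried the reporter allele. CD8+ T cells from lymph nodes (LN) and CD8 single positive (SP) cells from the thymus were sorted either as all CD8+ cells or as Vα3.2+ cells, with 2 libraries in each of the 8 groups. Ages were not given in the sources used here, LN cells were described as pooled from several mice of a genotype, and a field of the labels for the sorted cells reads Va2.3 where the others read Va3,2. Libraries of all CD8+ cells held 57455 to 146191 reads and 4357 to 16670 sequences, and libraries of Vα3.2+ cells held 10338 to 25247 reads and 84 to 1610 sequences. A segment of the TRAV9 family, which holds Vα3.2, was the best V hit of 5227 of the 5321 sequences from sorted cells. The paper equates Vα3.2 with TRAV9N-3 alone. Counted by reads, hits to TRAV9N-3 or TRAV9D-3 made up between 41.2% and 89.3% in sorted cells (median over libraries 75.2%). The tables measure TCRα and so cannot show Themis itself.

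Cysteine is encoded by TGT and TGC only, and few V or J segments encode one inside the CDR3. A cysteine in the middle of the loop can pair with another through a disulphide bond, and CDR3s with one near the apex have been linked to strong self-reactivity and removal in the thymus. The last residue of the CDR3 is normally the phenylalanine of the J segment's FGXG motif. Themis is a signalling adaptor that acts during thymocyte selection, and the comparison of genotypes, of thymus with LN and of Vα3.2+ with all CD8+ cells asked how selection and the sort went with these sequences.

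The internal cysteines fell into 2 places separated by a residue at which none was found. Of 2519 internal cysteines, 558 were the last residue of the CDR3, 1585 the next to last and 30 the residue before it, while 0 were at the fourth residue from the end. The remaining cysteines lay 5 or more residues from the end, with 79 each at the ninth and the tenth. The sequences were therefore divided into those with a cysteine in the last 3 residues, called J-end cysteines (2168 sequences), and those with a cysteine before these, called loop cysteines (344 sequences), with 11 in both. This division was made after the positions had been seen. All 2168 sequences with a J-end cysteine came from libraries of all CD8+ cells, and 0 of the 5321 sequences of sorted cells had one, which allows a share of up to 0.0564%.

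**Figure D1:**
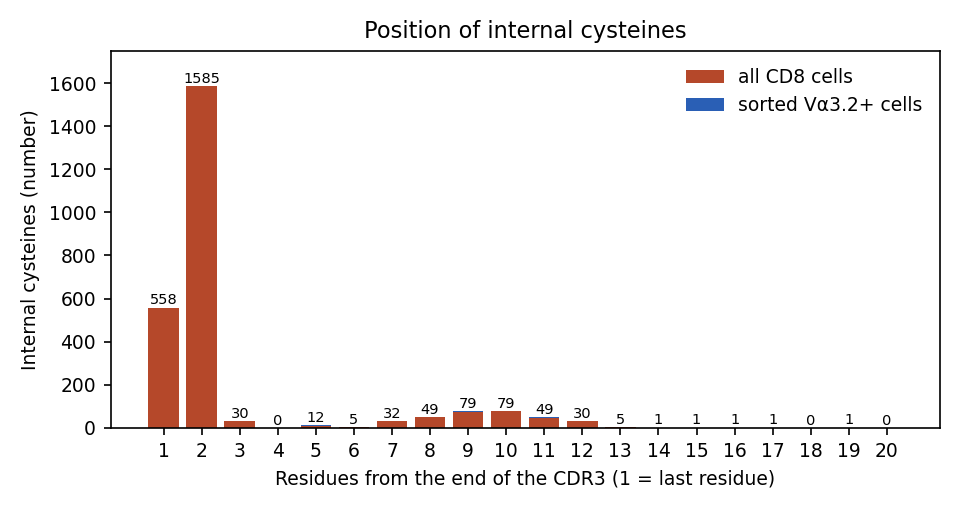
Number of internal cysteines (y axis) by residues from the end of the CDR3 (x axis, 1 = last residue), stacked for all CD8+ and sorted Vα3.2+ cells, with the sum above each bar. The next-to-last and last residues hold 1585 and 558, the fourth residue from the end holds 0, the 13 cysteines of sorted cells are too few to see at this scale, and 1 cysteine more than 20 residues from the end is not shown.

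The J-end cysteines are best seen beside the J segments they belong to. The last 18 bases of the CDR3 are printed for the 6 J segments with most J-end cysteines, first as the segment encodes them and then with the most frequent cysteine, and capitals mark the bases that differ from the segment. All were read from the deposited sequences, and the genes lie on chromosome 14 (GRCm38, plus strand, GENCODE).
Traj31 (54187895 to 54187951), segment, NNRIFF: aataacagaatcttcttt
Traj31, cysteine, NNRICF: aataacagaatctGcttt
Traj12 (54206553 to 54206610), segment, GYKVVF: ggctataaagtggtcttt
Traj12, cysteine, GYKVCF: ggctataaagtgTGcttt
Traj40 (54177921 to 54177981), segment, NYKYVF: aactacaaatacgtcttt
Traj40, cysteine, NYKYCF: aactacaaatacTGcttt
Traj34 (54184699 to 54184756), segment, TNKVVF: accaacaaagtcgtcttt
Traj34, cysteine, TNKVCF: accaacaaagtcTGcttt
Traj35 (54183774 to 54183838), segment, ASALTF: gcaagtgcgctgacattt
Traj35, cysteine, ASALTC: gcaagtgcgctgacatGt
Traj32 (54186101 to 54186166), segment, GNKLIF: ggcaacaagctcatcttt
Traj32, cysteine, GNKLIC: ggcaacaagctcatctGt
In each pair a T of the segment was read as G in the middle of the codon, and in the 3 pairs with GTC the G before it was read as T as well.

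Nearly all J-end cysteines differed from the J segment in this way. Of 2173 J-end cysteines, 2151 (99.0%) had at least 1 substitution in the codon against the best J alignment and 2142 (98.6%) had T to G at the middle base. At the next-to-last residue the commonest changes were TTC to TGC (797), GTC to TGC (561) and ATC to TGC (127), and at the last residue TTT to TGT (525). A single substitution was enough in 1379 cysteines and 769 had 2.

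The cysteines were a small part of a wider set of mismatches at the same bases. In libraries of all CD8+ cells, 49.8% to 57.1% of sequences and 30.2% to 36.7% of reads had at least 1 mismatch to the J segment in the last 9 bases of the CDR3, against 0.169% to 2.38% of sequences in sorted cells. Of the 49229 mismatched bases in all CD8+ cells, 38133 (77.5%) were T to G and 7804 (15.9%) were G to T, whereas sorted cells held 46 mismatched bases in all, 4 of them T to G. Counted from the 3′ end of the J segment, the bases 35, 36, 37, 38 and 40 were mismatched in 8.64%, 20.4%, 10.7%, 12.5% and 10.6% of sequences, base 39 in 0.545%, and no base from 41 to 46 in more than 0.14%. At these 5 bases a T of the segment was read as G in 33.3% to 42.0% of sequences, against 0.570% at base 39. The position followed the 3′ end of the segment: TRAJ35 has 34 bases after the CDR3 where the other J segments have 31, and its last residue, not the next to last, was the cysteine. TRAJ32, with 31 bases after the CDR3, was an exception in part. Its most mismatched base was the fifth from the end of the CDR3 (33.6% of sequences), which is base 36. In addition 13.7% to 15.4% of its sequences were mismatched at each of its last 3 bases, and its cysteine lay mostly at the last residue. Why T was read as G at these bases was not tested.

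**Figure D2:**
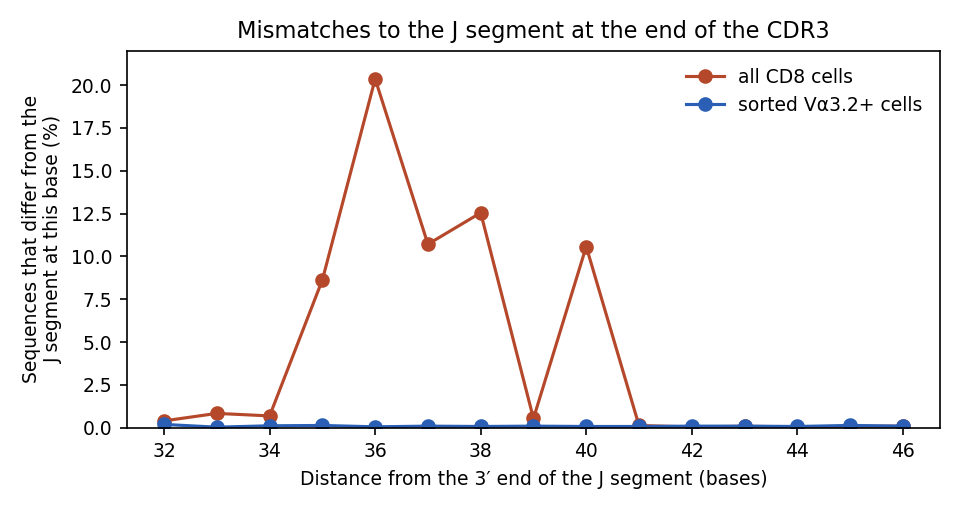
Percent of sequences with a mismatch to the J segment (y axis) by distance in bases from the 3′ end of the J segment (x axis), for all CD8+ and Vα3.2+ cells. Bases 35 to 38 and 40 stand between 8.64% and 20.4% in all CD8+ cells, base 39 lies at 0.545%, and the sorted cells stay near 0 throughout.

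The same CDR3 without the change was usually present in the same library. For 81.4% to 90.9% of J-end cysteine sequences in the 8 libraries, the sequence with the segment's own bases was found too, with more reads in 91.2% to 95.1% of these and a median of 4 to 6.2 times the reads. The lowest base quality over the last 9 bases had a median of 31 (Phred scale) in J-end cysteine sequences, 34 in sequences with another J-end mismatch, 38 in sequences of all CD8+ cells without one and 38 in sorted cells, while the cysteine codon of loop sequences had a median of 38. When the last 9 bases were set to the J segment and equal sequences of a library were joined, the 83992 sequences became 48741 and the 2501 with an internal cysteine became 245, of which 21 had it in the last 3 residues and 225 in the loop. Joining took 44.8% of the sequences of all CD8+ cells and 0.658% of those of sorted cells. Every loop result below was computed on the joined sequences.

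The J-end cysteines followed the J segment. A J-end cysteine was present in 828 of 4049 TRAJ31 sequences of all CD8+ cells (20.4%, 18.9% to 23.1% over the 8 libraries). The share was 14.8% for TRAJ35 (10% to 17.6%), 7.29% for TRAJ12, 6.60% for TRAJ34, 6.10% for TRAJ40, 5.72% for TRAJ32 and 4.43% for TRAJ16. The first 6 together gave 1682 (77.6%) of the J-end sequences and 20.4% of all sequences. TRAJ31, whose next-to-last codon TTC needs only the T-to-G change, was read with 4 main endings: IFF as encoded in 1520 sequences (37.5%, or 54.2% of TRAJ31 reads), IVF in 974 (24.1%), ICF in 773 (19.1%, or 14.98% of reads) and IGF in 600 (14.8%). The middle T of next-to-last codons was read as G in 34.4% to 38.1% of sequences in each library. It was 34.4% and 34.7% in the thymus of Themis+/+ mice, 37.1% and 35.9% in the thymus of Themis-/- mice, 35.3% and 36.7% in LN of Themis+/+ mice and 38.1% and 37.8% in LN of Themis-/- mice, so that Themis-/- lay above Themis+/+ in each tissue and LN above thymus in each genotype, with no overlap. The mean number of reads per joined sequence, given below, also differed between these libraries, and whether the order followed it was not tested.

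**Figure D3:**
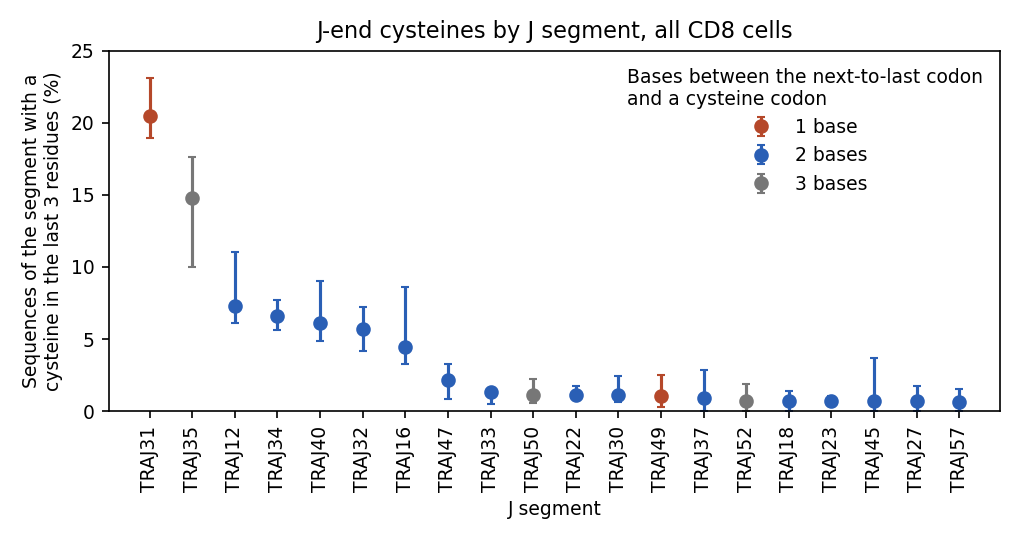
Percent of sequences of a J segment with a cysteine in the last 3 residues (y axis) for the 20 J segments where it was highest (x axis) among those with at least 500 sequences in all CD8+ cells; points are all 8 libraries together, bars run from the lowest to the highest library, and colours give how many bases of the next-to-last codon differ from a cysteine codon. TRAJ31 stands highest, between 18.9% and 23.1%, followed by TRAJ35 between 10% and 17.6%, whose cysteine is mostly the last residue.

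Tested against sequences of the same library without an internal cysteine, J use differed widely. In 87.1% of the tested sequences a cysteine lay in the last 3 residues, where the J segment sets the codons, so the rule itself favours some J segments. Versions of a CDR3 that differ at the J end were counted apart, a median of 3.5 to 5 per J-end cysteine sequence over the libraries. The p-values, also those for V segments below, therefore do not measure segment use by cells. With edgeR's quasi-likelihood test and Benjamini-Hochberg adjustment over 43 J segments, 7 were used more (16.3% of those tested) and 20 less (46.5%), or 62.8% in either direction. TRAJ31 made up 33.9% of sequences with an internal cysteine and 4.21% of the rest, a log2 fold change of 3.65 ± 0.11 (SE; edgeR adjusted p = 3.36e-101), higher in 8 of 8 libraries. The log2 fold change was 3.09 for TRAJ35, 1.95 for TRAJ12, 1.88 for TRAJ34 and 1.71 for TRAJ40, and TRAJ32 and TRAJ16 also passed. Among those used less, the log2 fold change was -2.85 for TRAJ7, -2.34 for TRAJ21, -1.76 for TRAJ15, -1.64 for TRAJ26 and -1.09 for TRAJ23, each lower in 8 of 8 libraries. The count lower moved with the tool, the scaling and single libraries: DESeq2 called 7 higher and 9 lower, edgeR without TMM factors 7 and 34, and edgeR with TMM factors but without the second LN library of Themis+/+ mice or without the first of Themis-/- mice 7 and 10. With the J end set to the segment, only 21 of the 2168 J-end cysteine sequences kept such a cysteine. The loss of the 5 rises given therefore followed from the setting and is no separate result. TRAJ31 then had a log2 fold change of -0.93 (edgeR adjusted p = 0.0957), TRAJ35 of -0.72, TRAJ12 of -1.09 and TRAJ34 of -0.77. TRAJ40 was lower at -1.98 (edgeR adjusted p = 0.0163).

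By the J part of the alignment alone, a cysteine lay in the J part of at least 5 sequences for 34 J segments, with 834 for TRAJ31, 278 for TRAJ12, 194 for TRAJ40, 152 for TRAJ34, 128 for TRAJ35, 107 for TRAJ32 and 70 for TRAJ16. The next were TRAJ22 (60), TRAJ33 (44), TRAJ30 (41), TRAJ49 (38), TRAJ23 (30), TRAJ47 (29) and TRAJ50 (24), and the other 20 (TRAJ4, TRAJ6, TRAJ9, TRAJ11, TRAJ13, TRAJ15, TRAJ17, TRAJ18, TRAJ21, TRAJ24, TRAJ26, TRAJ27, TRAJ37, TRAJ38, TRAJ45, TRAJ48, TRAJ52, TRAJ56, TRAJ57 and TRAJ58) had 5 to 17 each. In joined sequences only TRAJ50 (11), TRAJ22 (10) and TRAJ12 (5) reached 5. Among V segments only TRAV4-4-DV10 reached 5, with 6 of 920 deposited sequences, and none did in joined sequences. A single joined sequence of this segment, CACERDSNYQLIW, had 6 deposited versions in the first thymus library of Themis-/- mice, so the count does not show recurrence.

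Few V segments passed the same test. Of 110 V segments tested with edgeR, 1 was used more (0.909%) and 5 less (4.55%), together 5.45%. TRAV10 made up 1.77% of sequences with an internal cysteine and 0.790% of the rest, with a log2 fold change of 0.996 ± 0.276 (SE; edgeR adjusted p = 0.0120), higher in 8 of 8 libraries. The log2 fold change was -1.31 for TRAV19, -1.73 for TRAV5D-4/TRAV5N-4, -1.25 for TRAV13D-1 and -0.90 for TRAV6D-6, each lower in 7 of 8 libraries. TRAV6-6/TRAV6D-6/TRAV6N-5, a name for hits that scored equally, had 0 of 2488 sequences, which allows up to 0.121%, against 0.222% of the rest. These V calls were not stable: DESeq2 called 0 of 110 (13 at an unadjusted p under 0.05), and edgeR without TMM factors called TRAV10 and TRAV19 only. Without a single library of all CD8+ cells edgeR called 1 to 7 V segments, with 3 without either LN library of Themis+/+ mice or the second LN library of Themis-/- mice, 2 without the first thymus library of Themis+/+ mice and 1 without the second.

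The amino acid sequences found in most libraries were all of TRAJ31 and all came from all CD8+ cells. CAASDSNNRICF was found in 7 libraries, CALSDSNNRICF in 6, and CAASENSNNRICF, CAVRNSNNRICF, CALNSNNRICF and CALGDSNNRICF in 5 each. The most frequent nucleotide form of each of the first pair is printed with the cysteine codon in capitals and, below it, the same CDR3 with the segment's bases.
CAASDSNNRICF, TRAV14N-3 with TRAJ31: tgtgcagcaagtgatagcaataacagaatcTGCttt
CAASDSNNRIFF: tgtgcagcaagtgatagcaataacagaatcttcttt
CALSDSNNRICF, TRAV12-1 with TRAJ31: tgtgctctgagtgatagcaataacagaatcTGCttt
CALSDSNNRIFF: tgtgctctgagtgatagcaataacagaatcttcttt
In the second LN library of Themis-/- mice the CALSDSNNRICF form had 81 reads and its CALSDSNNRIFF form 163 reads. In the second thymus library of Themis-/- mice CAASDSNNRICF had 11 reads and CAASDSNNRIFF 26.

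No difference between genotypes or tissues in the share of sequences with any internal cysteine passed the test. In all CD8+ cells it was 3.24% and 3.27% in the 2 LN libraries of Themis+/+ mice, 3.31% and 3.53% in LN of Themis-/- mice, 2.84% and 3.12% in the thymus of Themis+/+ mice and 3.18% and 3.28% in the thymus of Themis-/- mice. In sorted cells there were 0 and 4 such sequences in LN of Themis+/+ mice, 5 and 1 in LN of Themis-/- mice, 0 and 1 in the thymus of Themis+/+ mice and 0 and 2 in the thymus of Themis-/- mice. Over the 4 pairs of groups, Themis-/- was higher by 0.087 percentage points (exact stratified permutation test over libraries, 2-sided, p = 0.438) and LN higher than thymus by 0.176 points (p = 0.110, the same exact test). Single sorted libraries moved these calls: the genotype difference was 0.171 points (exact permutation p = 0.0463) without the second LN library of Themis+/+ mice, and the tissue difference was 0.261 points (exact permutation p = 0.0247) without the first LN library of Themis+/+ mice. Without the second sorted thymus library of Themis-/- mice the tissue difference was 0.223 points (exact permutation p = 0.0417). In reads the shares ranged from 1.25% to 1.74% in all CD8+ cells, and the differences were -0.018 (p = 0.843) and -0.074 points (p = 0.460) by the exact permutation test. No difference between genotypes was shown to depend on tissue or sort, nor one between tissues on sort (exact permutation p = 0.276 to 0.897 over 6 tests).

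Sorted Vα3.2+ cells had fewer sequences with an internal cysteine. The difference from all CD8+ cells was -2.998 percentage points of sequences and -1.33 points of reads (exact permutation p = 0.00154 for each, the smallest the design allows), with every sorted library below every library of all CD8+ cells. Among sequences with a TRAV9 family segment only, 65 of 2397 (2.71%) in all CD8+ cells and 13 of 5227 (0.249%) in sorted cells had one, a difference of -2.47 points (exact permutation p = 0.00154). Of those 65, 56 had a J-end cysteine. With cysteines in the last 3 residues not counted, the difference over all segments was -0.183 points of sequences (exact permutation p = 0.128) and -0.191 points of reads (p = 0.0540). The sort, and whatever else separated the libraries of the 2 kinds of cell, cannot be told apart.

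Counted alone, J-end cysteines lay in the same order in every comparison of genotypes and tissues. They were in 2.55% and 2.47% of sequences from the thymus of Themis+/+ mice, 2.70% and 2.74% from the thymus of Themis-/- mice, 2.91% and 2.90% from LN of Themis+/+ mice and 3.05% and 3.29% from LN of Themis-/- mice, so that no 2 groups overlapped. The difference was 0.235 percentage points between genotypes and 0.422 points between LN and thymus, each with an exact permutation p = 0.0556, the smallest that 8 libraries allow, so neither could pass 0.05. The share of sequences with any J-end mismatch moved in the same direction, by 4.18 points between genotypes and 3.04 points between tissues (exact permutation p = 0.0556 for each). Per sequence with a J-end mismatch, the J-end cysteine share differed by 0.0035 points between genotypes (exact permutation p = 0.944) and by 0.470 points between tissues (p = 0.0556, exact). In reads, the J-end cysteine share differed by 0.020 points between genotypes (p = 0.722) and 0.087 points between tissues (p = 0.222, exact permutation test). Reads per joined sequence, which are not the total reads of a library, differed between the 8 libraries too. Joined sequences without a loop cysteine had a mean of 12.69 and 17.96 reads in the thymus of Themis+/+ mice. The means were 22.67 and 17.4 reads in the thymus of Themis-/- mice. In LN they were 18.18 and 17.83 reads in Themis+/+ mice and 30.66 and 30.31 reads in Themis-/- mice. Whether the order of the shares followed reads per joined sequence was not tested.

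**Figure D4:**
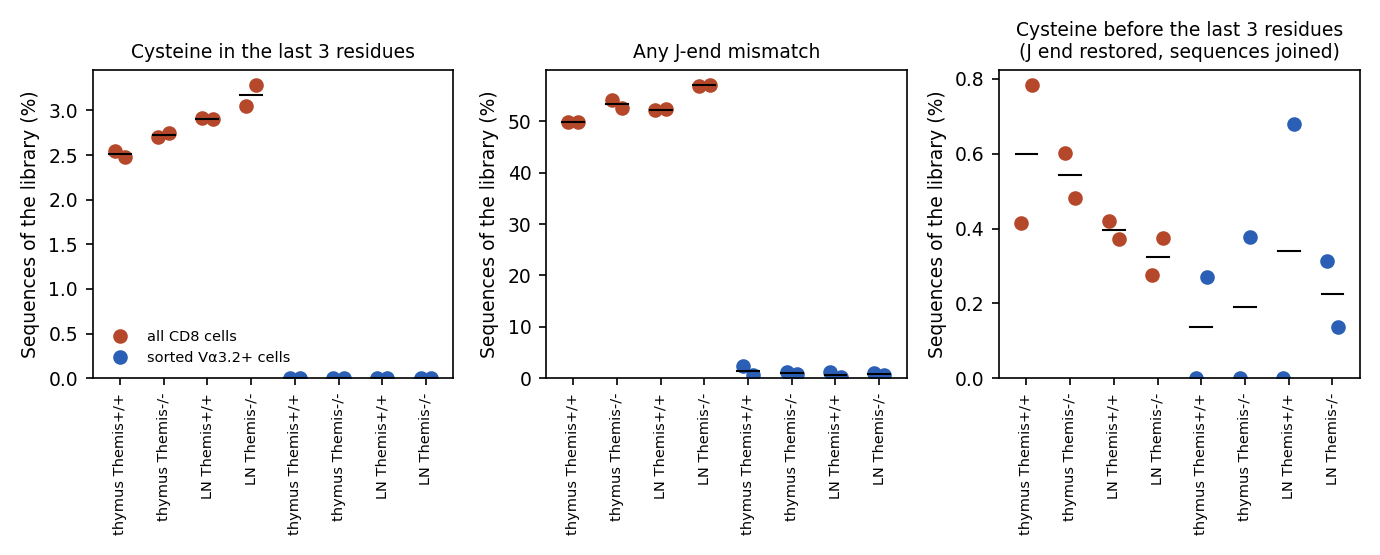
Percent of the sequences of each library (y axes) with a J-end cysteine (left), with any J-end mismatch (middle) and with a loop cysteine after joining (right), by group (x axes); points are libraries, lines the means of 2, and colours all CD8+ and sorted Vα3.2+ cells. J-end cysteines of all CD8+ cells run from 2.47% in the thymus of Themis+/+ mice to 3.29% in LN of Themis-/- mice and are 0 in sorted cells, and loop shares run from 0.276% to 0.784% in all CD8+ cells.

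Sequences with an internal cysteine had fewer reads and were slightly shorter than the rest. Within each of the 8 libraries of all CD8+ cells their mean was lower by 0.88 ± 0.10 log2 reads (SD, n = 8; exact sign-flip permutation p = 0.00781, the smallest possible), and over the 13 libraries that held any it was lower by 0.83 in 11 of 13 (p = 0.00464, exact permutation). Without sequences whose cysteine lay wholly in the V or J part, the value over libraries was -0.43 (exact permutation p = 0.0830). For the J-end kind the median was 2 to 4 reads against 4 to 6 reads for the other sequences of the library, and 27.8% to 42.8% were read in a single copy against 14.3% to 20.6%. Against other sequences with a J-end mismatch, J-end cysteine sequences were lower by 0.58 ± 0.11 log2 reads in 8 of 8 libraries (SD, exact permutation p = 0.00781). The number of changed bases was not matched, and 769 of 2173 J-end cysteines had 2 substitutions in the codon. For TRAJ12 the 1-change ending VGF had 5759 reads in 788 sequences and the 2-change ending VCF 686 in 208. For TRAJ31, IVF had 7411 reads in 974 sequences and ICF 5353 in 773, each with 1 change. In length, sequences with any internal cysteine were 1.36 ± 0.54 bases shorter in all CD8+ cells (SD, n = 8, exact permutation p = 0.00781), a difference smaller than a codon. Over the 13 libraries the difference was -1.31 bases (exact permutation p = 0.0125). After joining, the 13-library difference was 0.17 bases in the other direction (exact permutation p = 0.857).

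Loop cysteines were rare and most lay near the V end of the loop. The 225 joined sequences comprised 212 of all CD8+ cells and 13 of sorted cells, and the residue held was the fourth in 70, the sixth in 40, the fifth in 32 and the third in 28. In 189 the cysteine lay before the middle of the CDR3, in 34 after it and in 2 at it, and 102 had it within 2 residues of the middle. The codon was TGT in 117 and TGC in 108. It overlapped the junction, the bases assigned to neither V nor J alone, in 145 (64.4%), and lay in the V part in 33 and in the J part in 47. In joined sequences of all CD8+ cells cysteine was the rarest inner residue, present in 0.367% to 0.857% of sequences over the 8 libraries, with histidine next at 4.88% to 6.25%.

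In each of the 8 groups the deposited internal-cysteine sequence with the highest mean share of reads had its cysteine in the loop. They are printed with the cysteine codon in capitals and the reads of the library in which each had most.
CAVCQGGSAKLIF, TRAV7-5 with TRAJ57, LN of Themis-/-, 99 reads: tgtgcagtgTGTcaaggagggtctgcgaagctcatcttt
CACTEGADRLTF, TRAV12-2 with TRAJ45, LN of Themis+/+, 91 reads: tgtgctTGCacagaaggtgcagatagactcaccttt
TRAV7-5 with TRAJ43, thymus of Themis+/+, 89 reads: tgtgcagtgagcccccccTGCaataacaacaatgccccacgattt
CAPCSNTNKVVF, TRAV13-1 with TRAJ34, thymus of Themis-/-, 49 reads: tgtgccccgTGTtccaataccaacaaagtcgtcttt
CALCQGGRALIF, TRAV9N-4 with TRAJ15, sorted thymus of Themis-/-, 82 reads: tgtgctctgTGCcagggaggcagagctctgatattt
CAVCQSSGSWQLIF, TRAV9D-3/TRAV9N-3 with TRAJ22, sorted thymus of Themis+/+, 34 reads: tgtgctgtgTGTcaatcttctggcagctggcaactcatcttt
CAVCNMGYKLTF, TRAV9N-3 with TRAJ9, sorted LN of Themis+/+, 22 reads: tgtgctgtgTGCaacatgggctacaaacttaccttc
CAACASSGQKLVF, TRAV9D-3/TRAV9N-3 with TRAJ16, sorted LN of Themis-/-, 14 reads: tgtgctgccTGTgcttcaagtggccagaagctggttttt
The cysteine is the third or the fourth residue in all but the TRAJ43 sequence, where it is the seventh. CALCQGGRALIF took 0.357% of the reads of its library and was not found in the other thymus library of sorted Themis-/- cells. After joining, the loop sequence with most reads was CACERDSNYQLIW, of TRAV4-4-DV10 with TRAJ33, with 112 reads in the first thymus library of Themis-/- mice. All 13 loop sequences of sorted cells used a TRAV9 family segment, and 8 of them had the cysteine as the fourth residue.

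**Figure D5:**
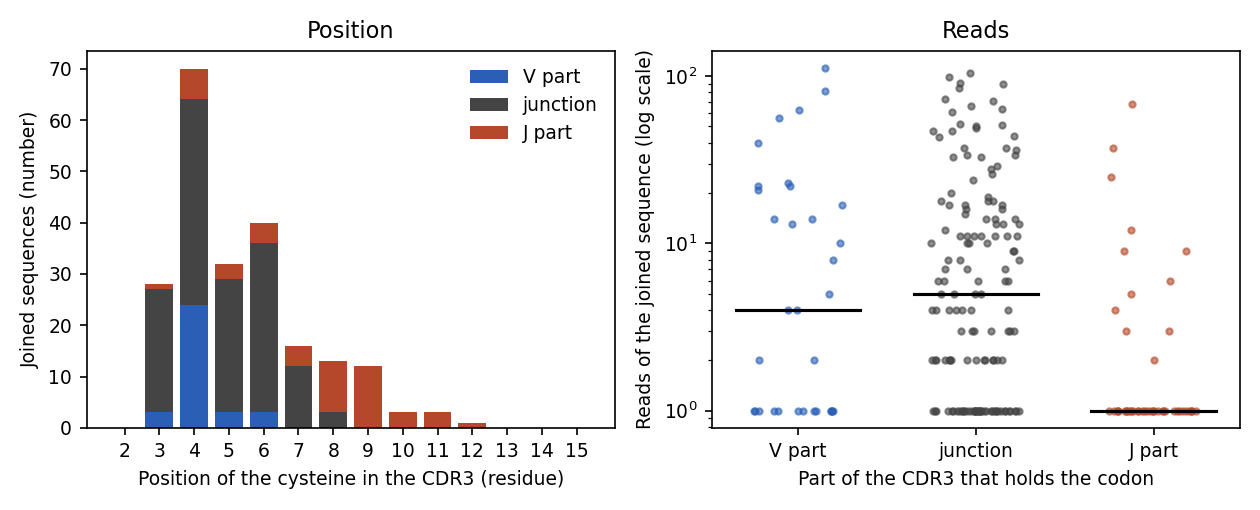
Left, joined loop-cysteine sequences (y axis, number) by residue of the cysteine (x axis, 1 = first residue), coloured by the part of the CDR3 that holds the codon; right, reads of each sequence (y axis, log scale) by that part, with points for sequences and lines at the median. The fourth residue holds most, 70 of 225, the medians are 4 reads in the V part, 5 in the junction and 1 in the J part, and 7 cysteines beyond residue 15 are not shown at left.

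The J-part loop cysteines had few reads. Their median was 1 read, 35 of 47 had a single read, and 21 of 47 differed by 1 mismatch from a sequence with at least 10 times the reads in the same library, against medians of 4 reads in the V part and 5 in the junction. Of the loop sequences of all CD8+ cells 88 of 212 (41.5%) had a single read, against 19.0% of the other joined sequences. Over all 13 libraries that held any, loop sequences were lower by 0.73 log2 reads (exact sign-flip permutation p = 0.0134), and in all CD8+ cells by 0.72 ± 0.48 in 7 of 8 libraries (SD; exact permutation p = 0.0156); with sequences of a single read left out, the 13-library value was -0.31 (p = 0.363, exact permutation). Loop sequences were seldom shared: 3 of 222 distinct nucleotide sequences were found in 2 or more libraries, against 11.9% of the other 40802. This is given as a description, because reads per sequence were not matched.

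No difference in the share of loop cysteines between genotypes or tissues passed the test. In all CD8+ cells it was 0.420% and 0.372% in LN of Themis+/+ mice, 0.276% and 0.374% in LN of Themis-/- mice, 0.416% and 0.784% in the thymus of Themis+/+ mice and 0.603% and 0.481% in the thymus of Themis-/- mice, from 6 to 43 sequences per library. The groups overlapped in each of these comparisons except that of LN with thymus in Themis-/- mice, where both LN values were lower. The difference between genotypes was -0.048 percentage points (p = 0.659) and that between LN and thymus -0.045 points (p = 0.698), both by the exact permutation test. The tissue value joins opposite signs. In all CD8+ cells LN minus thymus was -0.204 points in Themis+/+ and -0.217 points in Themis-/- mice. In sorted cells, with 0 to 5 loop sequences per library, it was 0.204 and 0.036 points. That the tissue difference depends on sort was not shown (exact permutation p = 0.136). In reads the differences between genotypes and between tissues were -0.028 (p = 0.758) and -0.119 points (p = 0.231, exact permutation test). Cysteines within 2 residues of the middle took 8.99 points more of all internal-cysteine sequences in LN than in thymus (exact permutation p = 0.491), and this changed sign within 1 residue of the middle (-1.52 points, p = 0.0556, exact). The positive sign came from sorted libraries with 1 to 5 such sequences each, where the share was 25%, 40% and 0% in LN and 0% in both thymus libraries that held any. In all CD8+ cells the share was lower in LN by the mean, at 4.16%, 6.38%, 0.694% and 3.14%, against 4.23%, 14.6%, 5.38% and 8.29% in thymus, and after joining it was 12.5% to 53.8% in LN and 36.4% to 63.8% in thymus, with overlap in both. Beside these, in deposited sequences 0 of 20 residues differed between tissues after adjustment (0%), with the first and last residue not counted. Cysteine itself differed there by 0.077 points (exact permutation, adjusted p = 0.824), J-end cysteines at the next-to-last residue included. In joined sequences it differed by -0.035 points (exact permutation, adjusted p = 0.909).

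Between sorts the loop share was lower in Vα3.2+ cells by 0.243 percentage points of sequences (exact permutation p = 0.0602) and 0.191 points of reads (p = 0.0540, exact), neither past 0.05. Counting only cysteines that overlapped the junction, the differences were -0.248 points (exact permutation p = 0.00617) and -0.224 points of reads (p = 0.00309, exact). This way of counting was chosen after seeing the data. The cysteine overlapped the junction in 4 of 13 loop sequences of sorted cells and in 141 of 212 of all CD8+ cells. It lay in the V part in 5 of 13 and 28 of 212. Junction cysteines were not compared within the TRAV9 family. Within the TRAV9 family 9 of 1575 joined sequences (0.571%) of all CD8+ cells and 13 of 5192 (0.250%) of sorted cells had a loop cysteine, with a difference of -0.335 points (exact permutation p = 0.213). The call for all segments rested on single libraries. It was -0.328 points (exact permutation p = 0.00309) without the second sorted LN library of Themis+/+ mice, -0.265 (p = 0.0386) without the first sorted LN library and -0.290 (p = 0.0432) without the second sorted thymus library of Themis-/- mice, -0.255 (p = 0.0478) without the first LN library of all CD8+ cells of Themis-/- mice, and -0.158 (p = 0.193) without the first sorted LN library of Themis+/+ mice. In reads the exact permutation p was 0.0123 to 0.0463 without the second sorted LN library of Themis+/+ mice, the first sorted LN or second sorted thymus library of Themis-/- mice, or the first thymus library of all CD8+ cells of Themis+/+ mice.

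V and J use of loop sequences could not be told from that of the rest. With edgeR on column totals 0 of 98 V segments and 0 of 43 J segments passed (0% of those tested in each), with 9 and 4 at an unadjusted p under 0.05, and 1 J segment passed without the first thymus library of Themis+/+ mice. TRAJ22 held 16 loop sequences, TRAJ31 and TRAJ33 11 each and TRAJ48 10, and TRAV12-2 and TRAV13-1 held 10 each. DESeq2 called 45 V and 10 J segments and edgeR with TMM factors 51 and 14, every one lower, so the call depended on the scaling of the sparse counts. The following counts are of deposited sequences with an internal cysteine at any place, which made up 3.16% of sequences in all CD8+ cells. The invariant chain of natural killer T cells, TRAV11 with TRAJ18, had one in 1 of 53 sequences. The chain of mucosal-associated invariant T cells, TRAV1 with TRAJ33, had one in 1 of 29. Neither was among the loop sequences.

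Loop sequences of unusual length came from the thymus. Of 225 loop sequences, 8 were over 20 residues long (24 to 40), 7 of them from the thymus of Themis-/- mice and 1 from that of Themis+/+ mice, where all CD8+ cells held 15 such joined sequences in all, 1 in LN and 14 in thymus. Of the 8, 5 used TRAJ17 and shared 1 structure, which is shown by the most-read of them, with 18 reads in the first thymus library of Themis-/- mice and the cysteine codon in capitals.
TRAV7D-2 with TRAJ17, 40 residues: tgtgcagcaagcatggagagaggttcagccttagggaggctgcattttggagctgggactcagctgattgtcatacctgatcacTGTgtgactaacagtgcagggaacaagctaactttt
After the V segment it holds 61 of the 66 bases of Traj18, up to the annotated end of that segment, and then Traj17 from its annotated first base, with the 7 bases cactgtg directly before Traj17. The other 4 hold 45 to 60 unbroken bases of Traj18, again up to its end, with the same letters before Traj17, so that in all 5 the cysteine codon TGT lies in cactgtg. Such letters flank unrearranged J segments as part of the recombination signal. Traj18 (chr14:54200777-54200842, GRCm38, plus strand) lies upstream of Traj17 (chr14:54201775-54201837) in the direction of transcription. The last 40 bases of Traj18 were found in 6 of 1678 deposited TRAJ17 sequences, all 6 with an internal cysteine, in 2 libraries, both from the thymus of Themis-/- mice, with 37 reads together. The V segments of the 5 were TRAV7D-2, TRAV3D-3/TRAV3N-3 in 2, TRAV10N and TRAV11D, and how they arose was not tested.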

How the data were processed

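Total RNA of sorted CD8+ cells was turned into TCRα libraries by the authors by template-switching cDNA synthesis and 2 rounds of PCR with a constant-region primer, sequenced on a MiSeq, and clonotypes were extracted with MiXCR (version: not given in the sources used here); CASAVA 1.4 and mm9 are named in the submitters' processing notes. The deposited values used were whole read counts per CDR3 nucleotide sequence and base quality scores on the Phred scale, whose lowest value over a CDR3 the deposited tables also give, and alignments to V and J segments; the lowest quality in use was 21. No molecular identifiers were described, so reads are not independent molecules, and intervals and limits of 3 counts cover counting error only. The deposited fractions equal a sequence's count over the library total.

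An internal cysteine was a C after the first residue of the translated CDR3. The best V or J hit was used, with equal hits kept as 1 joined name. J-end mismatches were the substitutions of the best J alignment in the last 9 bases; for joined sequences these bases were set to the segment and equal sequences of a library summed. Shares were compared between groups by exact 2-sided permutation of libraries within strata (1296 arrangements, smallest p = 0.00154; 36 for the 8 libraries of all CD8+ cells, smallest p = 0.0556), and differences within libraries by exact sign flips. A comparison of 2 libraries with 2 cannot reach 0.05. V and J use was tested with edgeR 4.0.16 (quasi-likelihood, TMM, library as a term, segments with at least 10 sequences in 4 libraries, adjusted p under 0.05), on column totals for loop sequences. Scripts were tested on simulated data. Python 3.11.15, pandas 2.3.3, scipy 1.17.1 and R 4.3.3 were used, with gene positions and J transcripts from GENCODE M21.

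The members, segments and lists were chosen with earlier results of these data known. Named segments were up to 5 in each direction with the smallest adjusted p and those whose part holds a cysteine in at least 5 sequences. Named CDR3s were the 6 found in most libraries and the one with the highest mean share of reads in each group. The split at the last 3 residues, joining, every loop result, the J-end mismatch results, column totals, and the search for Traj18 in long sequences were chosen after seeing the data; TRAJ22 with other loop counts, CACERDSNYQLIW and the long sequence were named after their values were seen. Alternatives were DESeq2 1.42.0, scaling, filters, distinct amino acid sequences, single reads or 1-mismatch neighbours (10 times the reads) left out, thinning to equal reads (20 draws), which cysteines were counted, a replicate block, and each library left out. The series text speaks of individual mice and the titles only number the libraries, while LN cells were described as pooled. The paper's repertoire figure pooled the data of each genotype from separate experiments. P-values measure only the spread between these libraries.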

Additional observations from a re-analysis of the deposited data

Results flagged for a closer look

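In the libraries of all CD8+ cells, loop-cysteine sequences were, by the mean, shorter than the other joined sequences of their library in LN and longer in thymus, so that every library of each tissue moved one way and every library of the other the opposite way. The difference members minus rest was -2.71 to -1.19 bases in the 4 LN libraries and 0.272 to 7.31 bases in the 4 thymus libraries. The difference LN minus thymus was -5.96 bases (exact permutation within genotype, p = 0.0556, the smallest that 8 libraries allow). With sequences over 20 residues left out, an alternative chosen after seeing the data, thymus lay between -0.207 and 1.67 bases and the difference was -2.33 (exact permutation p = 0.0556), so the opposite signs were lost. They were also lost with sequences of a single read left out, where the thymus libraries ran from -0.84 to 8.83 bases, and by medians, where the thymus libraries ran from -3 to 0 bases and the difference LN minus thymus was -1.125. The 8 loop sequences over 20 residues, all from thymus, had 1 to 18 reads each.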

How the results depend on the processing

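Of 147 values under other settings, 116 kept their direction and side of the threshold (counts within 1.5 times), and of 364 with 1 library left out, 322 did; the cause of the others was not tested. The genotype and tissue differences in the share of sequences, both short of 0.05, were -0.0033 and -0.081 percentage points with cysteines wholly in the V or J part not counted, -0.034 and -0.043 with those in the last 3 residues not counted, and -0.033 and -0.035 in joined sequences. The difference between sorts was -0.183 points of sequences (exact permutation p = 0.128) and -0.191 of reads (p = 0.0540) without the last 3 residues, and -0.194 of reads (p = 0.0509) in joined sequences. For loop cysteines, the tissue difference was 0.00079 with single reads left out. The difference between sorts, with cysteines of the junction only, was -0.248 of sequences and -0.224 of reads. That setting kept 4 of the 13 loop sequences of sorted cells. The apex difference was -1.52 within 1 residue of the middle. The length difference was -0.191 bases (exact permutation p = 0.886) without cysteines wholly in the V or J part and 0.168 in joined sequences, and the loop length difference was -0.141 with single reads left out and -1.38 by medians. The difference in log2 reads was -0.430 (exact permutation p = 0.0830) without cysteines wholly in the V or J part, and -0.307 for loop sequences with single reads left out.

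Of 6 V segments called, DESeq2 called 0, edgeR without TMM factors 2, edgeR without cysteines wholly in the V or J part 65 and edgeR on joined sequences 48. Of 27 J segments, the counts were 16 with DESeq2, 41 without TMM factors and 10 in joined sequences, 9 of these 10 shared with the 27 and 1 of opposite sign. For loop sequences, DESeq2 called 45 V and 10 J segments and TMM factors gave 51 and 14, all lower. Without cysteines wholly in the V or J part the log2 fold change was -1.23 for TRAV10, -1.53 for TRAJ31, -2.45 for TRAJ35, -4.00 for TRAJ12, -1.33 for TRAJ34 and -3.28 for TRAJ40. In joined sequences these values were -0.64, -0.93, -0.72, -1.09, -0.77 and -1.98. Both settings take out J-end cysteines, so the loss of the J rises followed from the choice of setting.

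With 1 library left out, the share of sequences differed by 0.0019 to 0.171 points between genotypes and by 0.0914 to 0.261 between tissues, and the share of reads by -0.0749 to 0.0385 between genotypes. Loop shares of sequences differed by -0.132 to 0.0373 between genotypes, -0.130 to 0.0396 between tissues and -0.328 to -0.158 between sorts, and those of reads by -0.0920 to 0.0362 between genotypes and -0.255 to -0.127 between sorts. The J-end share of reads differed by -0.0394 to 0.0799 between genotypes, the J-end share per mismatched sequence by -0.0915 to 0.0985, and loop length by -0.397 to 0.713 bases. Counts of segments were 1 to 7 for V, 17 to 28 for J and 0 to 1 for loop J.

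The labels number the libraries of a group 1 and 2, and what a number shares was not given. Library 1 was lower than library 2 in 7 of 8 groups for internal cysteines and in 5 of 8 for loop cysteines. With the number as a replicate block, the difference between sorts in loop reads, -0.191 points, had an exact permutation p = 0.0234; the replicate block changed no other call of the shares. Sorted libraries held 84 to 1610 sequences, so that differences within them of the size seen in all CD8+ cells rest on 0 to 5 sequences each.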
